A study of Homo sapiens with 20 samples.

Results

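The genes described here encode the subunits, activators, regulators and assembly chaperones of the proteasome, followed through erythroid differentiation of HUDEP-2 cells. They were chosen by symbol: every gene named PSMA to PSMG plus a number that had at least 1 curated mRNA among its transcripts. The rule found 48 genes of the 46425 in the deposited tables, with 150 of the 170322 transcripts, and used no measured value. HUDEP-2 is an immortalized line of wild-type erythroid progenitors from human umbilical cord blood, so all libraries come from 1 line. RNA was taken before differentiation (day 0, the proerythroblast stage) and on each of days 1 to 8 and on day 12 of culture in a differentiation medium that held transferrin, human AB serum, heparin, insulin, EPO, SCF and doxycycline. SCF was left out from day 6 and doxycycline from day 8, and day 0 cells were in the serum-free expansion medium with EPO, SCF, doxycycline and, by the study's methods, dexamethasone. Every comparison with day 0 therefore includes a change of medium, which cannot be told apart from differentiation. Likewise, the step from day 8 to day 12 includes the culture without doxycycline, which cannot be told apart from differentiation either. By stage, day 8 stands for polychromatic erythroblasts and day 12 for orthochromatic erythroblasts and reticulocytes. Each of the 10 days had 2 libraries of stranded, poly(A)-selected mRNA, 20 in all.

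The proteasome degrades proteins that carry ubiquitin chains. Its 20S core is a stack of alpha and beta rings, and the beta subunits PSMB5, PSMB6 and PSMB7 hold the proteolytic sites. In cells exposed to interferon, and in lymphoid cells, PSMB8, PSMB9 and PSMB10 take their places and form the immunoproteasome, which shapes peptides for antigen presentation. The 19S regulatory particle adds a base, in which the PSMC ATPases unfold substrates, and a lid, whose subunit PSMD14 removes ubiquitin from them. Together core and 19S particle form the 26S proteasome. PSME1 to PSME4 activate the core in place of the 19S particle, and the PSMG proteins and PSMD5, PSMD9 and PSMD10 help to assemble core and base. Maturing erythroid cells clear most of their proteins and organelles before they become red cells, and ubiquitin-dependent proteolysis is part of that remodelling.

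The libraries are kept apart here as a pair of sets. Set A holds the libraries from the tables of separate days, and set B those from the table that spans all days, with 1 library of each day in each set. Total counts were between 52131713 and 70358198 per library, so that 3 counts, the limit that a count of 0 allows, correspond to 0.0426 to 0.0575 CPM (counts relative to library size). These limits cover counting error only. The set A libraries of days 7 and 8 held 16.8% to 17.6% ribosomal RNA, against 0.737% to 2.68% elsewhere. Without both of these libraries, the day 8 calls of PSMA3, PSMB2, PSMB4, PSMB5, PSMB8, PSMG2 and PSMG4 were lost. For the genes outside the PSM families, the results without them were not examined. All 12 erythroid markers on a fixed list were detected in every library, with a summed level of 28260 to 494400 TPM (transcript abundance scaled to length and library total). The 12 markers of other blood cells summed to between 0.1965 and 71.73 TPM, and 5 of them were at 0 throughout. Of 3 markers of other tissues, ALB was at 0 throughout and COL1A1 reached at most 0.01632 TPM. The third, EPCAM, was detected in every library, from 0.4723 to 252.7 TPM with a median of 177.8. The study calls the libraries of days 0 and 8 biological replicates; whether those of a day came from separate cultures is not said further, and the p-values measure the spread between these libraries.

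Proteasome mRNA as a whole became a smaller part of the transcriptome late in differentiation. The members' sum in TPM was 7449 in set A and 7509 in set B before differentiation, 4387 and 5609 by day 8, and 2166 and 2070 by day 12. Day 12 was thus the lowest day in both sets. Over the same days the share of TPM taken by globin genes went from 2.915% and 2.904% to 59.4% and 62.98%, which lowers the TPM of every other gene. With globin genes left out, the members' sum in TPM was 7673 and 7734 before differentiation, 6276 and 7511 by day 8 and 5340 and 5592 by day 12. On the scale of the main test, CPM normalized by TMM (which sets most genes level between libraries), the sums were 5251 and 5036 on day 0, 4975 and 5376 on day 8 and 5683 and 6790 on day 12. The direction of the summed level between day 8 and day 12 therefore turned with the scale, down on both TPM scales and up on TMM-normalized CPM. Less proteasome mRNA per cell and a larger share of other RNA cannot be told apart in such data.

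Of the 48 members, 46 passed the filter on low counts and were tested, and 2 did not. PSMA8, the alpha subunit of testis, had 0 counts in every library. PSMB11, the beta subunit of the thymus, reached at most 4 counts. Over the whole time course 35 of the 46 tested members differed on at least 1 day from day 0 (edgeR quasi-likelihood F test, adjusted p under 0.05 over 16784 genes), where 66.0% of all genes tested did. Between day 0 and day 4 only a few members moved: PSMG3 and PSME1 rose, for a background of 2.93% of all genes, and PSMB9 fell, for a background of 2.35%. None of the 31 subunits of the 26S particle was called on day 4 by edgeR, with 3 higher at an unadjusted p under 0.05 and 1 higher by DESeq2. Between day 0 and day 8, 7 members rose and 8 fell, beside 17.7% and 19.4% of all genes. From day 8 to day 12, 13 rose and 19 fell, beside 23.8% and 33.4% of all genes. The median log2 fold change of the members was 0.16 on day 4 (all genes -0.01), 0.01 on day 8 (all genes 0.0) and -0.31 from day 8 to day 12 (all genes -0.20).

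The calls from day 8 to day 12 need their scale beside them. The all-gene median of -0.20 under TMM became -0.03 with DESeq2's size factors, under which 16 members were called higher and 16 lower. On log2(TPM + 1), where globin weighs on every gene, limma called 0 members higher and 40 lower, and 12 of the 32 members called in the main test had the opposite sign. In edgeR 13 members were higher at an unadjusted p under 0.05. What did not depend on the scaling between libraries is the order and the ratio of the members inside a library, and these are described first for the immunoproteasome and then for the rings and the lid.

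The immunoproteasome genes were low from the start and 2 of the 3 fell further. PSMB9 fell by day 4 and PSMB8 by day 8, whereas PSMB10 was not called in any of the 3 comparisons. PSMB8 and PSMB9 lie beside each other in the class II region of the major histocompatibility complex (hg38, as the deposited tables give their transcripts, chr6:32840717-32844679 and chr6:32854192-32859851), and PSMB10 lies at chr16:67934506-67936850. Their promoters, from RefSeq (GRCh38.p14, each from 250 bases before to 50 bases after the gene start), are shown because PSMB9 and PSMB8 are the members with the largest fall by day 8, beside the related subunit that was not called. Capitals mark matches, on either strand, to an interferon-stimulated response element core (GAAANNGAA), a gamma-activated site (TTCNNNGAA), an antioxidant response element core (TGACNNNGC) and the CCAAT box (CCAAT). The first 2 motifs were added after values had been seen.
PSMB8, chr6:32843998-32844297, minus strand, the downstream of 2 listed starts: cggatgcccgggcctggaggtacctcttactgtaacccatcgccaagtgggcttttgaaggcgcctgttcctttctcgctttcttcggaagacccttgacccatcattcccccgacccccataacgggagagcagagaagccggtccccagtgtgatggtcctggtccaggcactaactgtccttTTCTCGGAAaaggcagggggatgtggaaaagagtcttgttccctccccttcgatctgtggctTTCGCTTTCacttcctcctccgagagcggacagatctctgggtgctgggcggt
PSMB9, chr6:32853942-32854241, plus strand: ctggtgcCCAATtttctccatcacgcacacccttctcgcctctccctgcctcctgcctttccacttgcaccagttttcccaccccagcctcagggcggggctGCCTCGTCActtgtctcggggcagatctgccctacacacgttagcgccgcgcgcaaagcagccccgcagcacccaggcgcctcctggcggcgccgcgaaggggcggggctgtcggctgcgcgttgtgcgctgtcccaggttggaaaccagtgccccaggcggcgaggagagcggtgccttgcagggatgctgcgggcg
PSMB10, chr16:67936801-67937100, minus strand: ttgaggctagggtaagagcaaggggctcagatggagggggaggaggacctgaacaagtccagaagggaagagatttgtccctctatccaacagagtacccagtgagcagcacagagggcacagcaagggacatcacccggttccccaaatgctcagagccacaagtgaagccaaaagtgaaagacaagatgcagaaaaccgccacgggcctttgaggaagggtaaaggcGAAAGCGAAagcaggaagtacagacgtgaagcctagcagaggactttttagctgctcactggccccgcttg

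Counted from the start shown, the capitals in PSMB8 begin at -65 (gamma-activated site) and -3 (interferon-stimulated response element core). The one in PSMB10 begins at -21 (interferon-stimulated response element core). At the other listed PSMB8 start, the window chr6:32844630-32844929 held no match to any motif searched. PSMB9 showed neither a gamma-activated site nor an interferon-stimulated response element core in its window. Its capitals mark a CCAAT box at -243 and an antioxidant response element core at -148. Promoters were matched for 42 of the 48 members, 51 promoters in all. The antioxidant response element core, the motif of NFE2L1 and NFE2L2, was in 29.4% of the members' promoters and in 13.3% of all 35116 promoters of that length. The CCAAT box was in 39.2% against 34.6%, the interferon-stimulated core in 15.7% against 8.11% and the gamma-activated site in 15.7% against 7.66%. These are matches of letters, not measured binding.

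PSMB9 had 245 counts in set A and 186 in set B on day 0, 64 and 34 on day 1, 10 and 20 on day 4, 8 and 0 on day 8, and 4 and 0 on day 12. Both day 0 libraries lay above every later library. Its log2 fold change was -3.86 ± 0.96 (SE) from day 0 to day 4 (adjusted p = 0.0346, lost without any 1 library of days 0, 2 or 4) and -5.34 ± 1.06 from day 0 to day 8 (adjusted p = 0.00176). The 0 counts in set B allow up to 0.0575 CPM on day 8, so that the size of this change is not well fixed and ran from -10.59 to -2.92 over the alternatives. PSMB8 stood at 21.9 and 18.63 TPM on day 0, 8.293 and 11.84 on day 4, 2.777 and 4.147 on day 8 and 0.3164 and 1.258 on day 12. On the TPM scale each of these days lay below the one before it in both sets, while on TMM-normalized CPM set B stood at 2.585 on day 8 and 2.91 on day 12. PSMB8 was not called on day 4 (-0.87 ± 0.46, adjusted p = 0.348) and fell by day 8 (-2.01 ± 0.48, adjusted p = 0.00527), a call that was lost without the set A library of day 8 (log2 fold changes without 1 library ran from -2.14 to -1.86). PSMB10 stood at 27.14 and 27.84 TPM on day 0, 17.38 and 35.97 on day 4, 19.42 and 21.15 on day 8 and 9.187 and 7.346 on day 12. In TPM set A lay below set B on every day from 0 to 8, while in TMM-normalized CPM it lay above on days 0 and 8. Its log2 fold change was 0.16 ± 0.35 from day 0 to day 8 (adjusted p = 0.755) and 0.14 ± 0.36 from day 8 to day 12 (adjusted p = 0.766).

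Neither PSMB8 (-0.42 ± 0.47, adjusted p = 0.471) nor PSMB9 (-0.14 ± 1.21, adjusted p = 0.951) was called from day 8 to day 12, where PSMB9 was near the limit of detection. For the 3 immunoproteasome genes in that step, 0 passed edgeR's test, 0 had an unadjusted p under 0.05 and 0 were called by DESeq2. Markers of other blood cells were also lower after the first 8 days, without a test: the 12 markers summed to 70.62 and 12.56 TPM on day 0 and to 0.5497 and 0.3307 TPM on day 8. The sum was made mainly by ITGA2B, an integrin of megakaryocytes and early progenitors, which reached 69.84 TPM, while 5 of the 12, CD3E, PF4 and PPBP among them, were at 0 in every library. Whether other blood cells had a part in the fall of PSMB8 and PSMB9 was not tested.

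Relative to its constitutive counterpart, each immunoproteasome subunit kept a different course. The ratio of PSMB8 to PSMB5 (the chymotrypsin-like site) was 12.3% and 11.1% in TPM on day 0, 3.65% and 4.32% on day 8 and 1.08% and 3.79% on day 12. PSMB9 was 3.91% and 2.83% of PSMB6 (the caspase-like site) on day 0 and at most 0.128% on day 8. PSMB10 was 10.4% and 10.2% of PSMB7 (the trypsin-like site) on day 0 and 19.7% and 14.7% on day 12, its highest ratios of the series. So the constitutive subunit was the higher in every pair and every library.

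**Figure D1:**
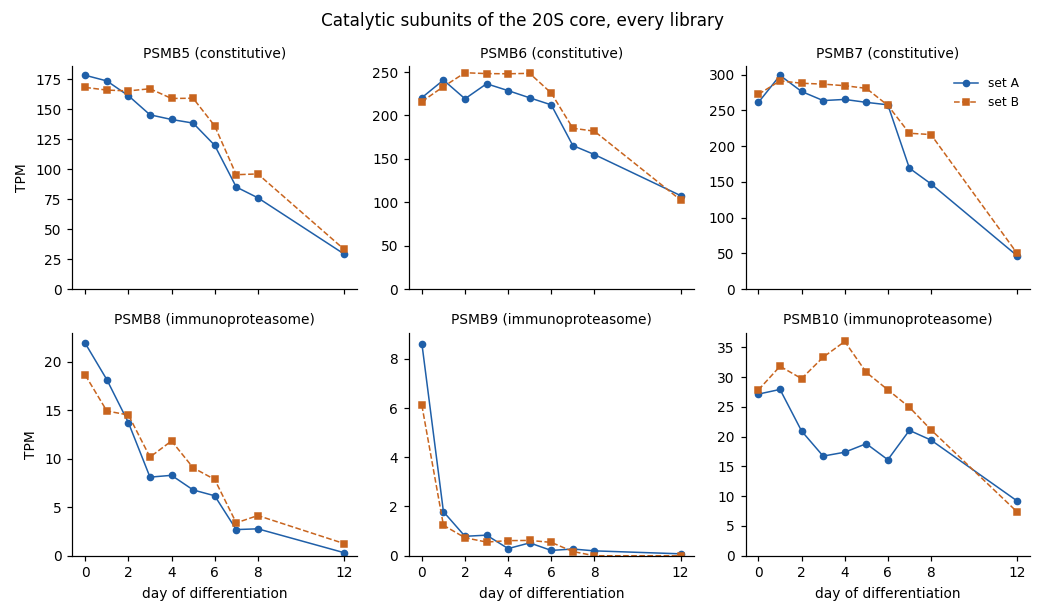
TPM by day of the constitutive catalytic subunits (top) and of the immunoproteasome subunits that replace them (bottom), each panel with its own axis from 0. Circles with solid lines are set A and squares with dashed lines set B; PSMB9 drops from 8.617 and 6.108 TPM on day 0 to 1.789 and 1.238 TPM on day 1, while PSMB10 is apart in the 2 sets on days 2 to 6.

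The constitutive catalytic subunits themselves parted on day 12. PSMB5 stood at 77.78 and 69.78 TMM-normalized CPM on day 0, 54.31 and 56.22 on day 8 and 46.88 and 68.3 on day 12. It fell by day 8 (-0.42 ± 0.15, adjusted p = 0.0471), a call close to the threshold that was lost in 18 of the 20 fits without 1 library, and was not called after it (0.06 ± 0.15, adjusted p = 0.774). PSMB6 stood at 75.23 and 69.87 on day 0, 86.13 and 83.14 on day 8 and 128.4 and 164.0 on day 12. It was not called by day 8 (0.22 ± 0.13, adjusted p = 0.185) and rose by day 12 (0.79 ± 0.13, adjusted p = 0.000122), where log2(TPM + 1) gave -0.67. PSMB7 stood at 106.3 and 105.0 on day 0, 97.17 and 117.9 on day 8 and 66.31 and 93.6 on day 12. It was not called by day 8 (0.025 ± 0.16, adjusted p = 0.927) and fell by day 12 (-0.43 ± 0.16, adjusted p = 0.0327), a call that DESeq2 did not make and that was lost without the set B library of day 8 or the set A library of day 12.

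In an assembled 26S proteasome the subunits of a ring are present in equal numbers, and their mRNAs drew apart on day 12. In the alpha ring the highest subunit mRNA, PSMA7 in every library, was 5.42 to 7.27 times the lowest, PSMA5, on days 0 to 8. On day 12 the ratio was 19.1 in set A and 25.3 in set B, with PSMA4 the lowest. In the constitutive beta ring the ratio of PSMB1 to PSMB2 went from 5.3 and 5.88 on day 0 to 9.15 and 7.53 on day 8 and to 13.9 and 18.9 on day 12. In the lid it was 5.23 and 5.36 on day 0, 4.55 and 3.85 on day 8 and 13.8 and 26.1 on day 12, when PSMD8 was the highest and PSMD14 the lowest. The 6 ATPases of the base stayed closer together, with 3.69 and 3.64 on day 0, 3.64 and 3.15 on day 8 and 4.05 and 5.94 on day 12. Over the 31 subunits of the 26S particle, the SD of log2 TPM was 0.70 to 0.84 on days 0 to 8 and 1.26 and 1.42 on day 12. Both day 12 libraries lay above all 18 others on this measure. From day 8 to day 12 the log2 fold changes of these 31 subunits had an SD of 0.819, against 2.76 over all genes tested. The interquartile ranges were 1.249 and 2.617. From day 0 to day 8 the SDs of the same 31 subunits and of all genes tested were 0.277 and 2.143. The genes tested were not matched to the subunits in level. Whether drawing apart from day 8 to day 12 was particular to the proteasome was therefore not tested. A ratio inside a library does not depend on globin or on the scaling between libraries. The ratios are given as a description, without a test.

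**Figure D2:**
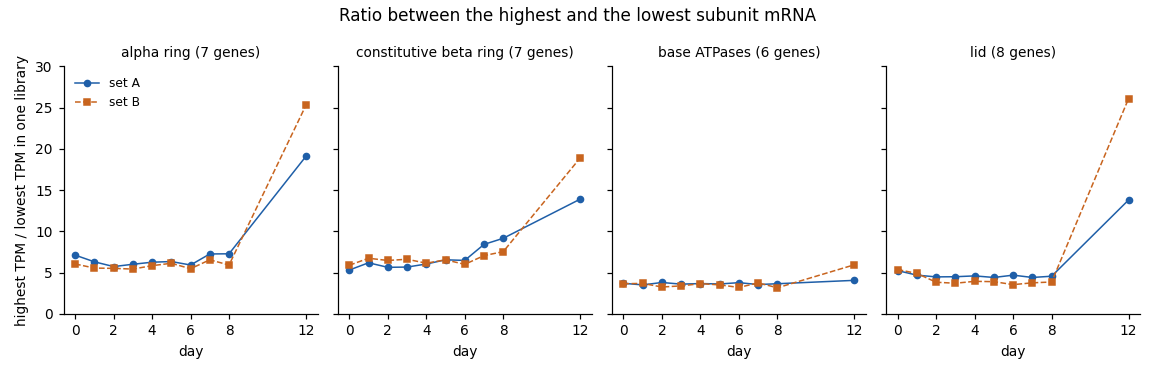
Ratio of the highest to the lowest TPM among the genes of a ring or subcomplex in each library, by day, on a shared axis from 0. Circles with solid lines are set A and squares with dashed lines set B; on day 12 the ratio reaches 19.1 and 25.3 in the alpha ring and 13.8 and 26.1 in the lid but 4.05 and 5.94 among the base ATPases.

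In the alpha ring, which gates the entry to the core, 0 of 7 genes rose and 1 fell by day 8 (edgeR; at an unadjusted p under 0.05 also 0 rose, and DESeq2 called 0 higher), and from day 8 to day 12, 1 rose and 4 fell. PSMA3 was the one that fell by day 8 (-0.65 ± 0.20, adjusted p = 0.0229), a call lost without either set A library of days 0 and 8, and PSMA1 had the highest value there (0.22 ± 0.15, adjusted p = 0.274). PSMA7 rose on day 12, from 142.8 and 131.3 to 268.6 and 328.8 TMM-normalized CPM (1.12 ± 0.12, adjusted p = 3.03e-06), where log2(TPM + 1) gave -0.33. PSMA4 fell over the same step, from 97.39 and 118.0 to 42.65 and 36.05 (-1.45 ± 0.21, adjusted p = 4.54e-05). The neighbours in the ring thus moved in opposite directions relative to the rest of the transcriptome. PSMA1, PSMA2 and PSMA3 fell as well, and PSMA5 and PSMA6 were not called.

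In the constitutive beta ring, 1 gene rose and 2 fell by day 8, and 2 rose and 3 fell from day 8 to day 12. PSMB4, a structural subunit, had the highest value by day 8 (0.47 ± 0.16, adjusted p = 0.0311, lost without set A of day 0 or either library of day 8, and -0.13 on log2(TPM + 1)) and rose again by day 12 (0.64 ± 0.16, adjusted p = 0.00313, lost without set B of day 12, and -0.82 on log2(TPM + 1)). PSMB2 had the lowest value by day 8 (-0.47 ± 0.17, adjusted p = 0.0421), and its call was lost in 15 of the 20 fits without 1 library. PSMB3 had the lowest value from day 8 to day 12, from 86.72 and 88.08 to 39.94 and 46.55 TMM-normalized CPM (-1.02 ± 0.13, adjusted p = 1.38e-05). PSMB1 was not called in either step.

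In the base, 0 of the 6 ATPases and 0 of the 3 other subunits were called by day 8, by edgeR, at an unadjusted p under 0.05 or by DESeq2. The ATPases then ranged from -0.26 for PSMC4 to 0.24 for PSMC6. From day 8 to day 12, 3 ATPases fell and 0 rose by edgeR, with 0 higher at an unadjusted p under 0.05 and 1 higher by DESeq2. PSMC2 fell most (-0.82 ± 0.16, adjusted p = 0.000752), beside PSMC6 and PSMC1, while PSMC4 was highest and not called (0.31 ± 0.17, adjusted p = 0.146). Among the scaffold and receptor subunits, PSMD1 fell (-0.95 ± 0.14, adjusted p = 5.39e-05), PSMD4, a ubiquitin receptor, rose (0.58 ± 0.13, adjusted p = 0.0015), and PSMD2 was not called (-0.01 ± 0.19, adjusted p = 0.997). On log2(TPM + 1) PSMD4 had the opposite sign (-0.87).

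In the lid, which holds the deubiquitinase, genes moved both ways on day 12. By day 8, 0 of its 8 genes were called by edgeR or DESeq2, with 1 higher and 1 lower at an unadjusted p under 0.05, and they ranged from -0.31 for both PSMD3 and PSMD7 to 0.41 for PSMD12. From day 8 to day 12, 4 rose and 3 fell. PSMD8, which helps to anchor the lid, stood at 242.8 and 195.4 TMM-normalized CPM on day 0, 183.2 and 180.2 on day 8 and 378.4 and 546.8 on day 12 (1.35 ± 0.18 from day 8 to day 12, adjusted p = 1.96e-05). PSMD14, the deubiquitinase of the lid, stood at 118.3 and 109.9 on day 0, 100.1 and 113.8 on day 8 and 27.97 and 21.32 on day 12 (-2.12 ± 0.16, adjusted p = 1.12e-07). Both day 12 libraries lay below all earlier ones for PSMD14 and above all earlier ones for PSMD8. In TPM, PSMD8 was 177.5 and 211.1 on day 8 and 170.0 and 186.2 on day 12 (-0.12 on log2(TPM + 1)), whereas PSMD14 went from 95.2 and 131.0 to 12.33 and 7.128. PSMD13, PSMD7 and PSMD3 rose with PSMD8, by log2 fold changes of 1.21, 0.75 and 0.59, against -0.25, -0.68 and -0.85 on log2(TPM + 1). The PSMD7 call was lost without set B of day 8 and the PSMD3 call without set B of day 12. PSMD12 and PSMD6 fell with PSMD14, the PSMD6 call being lost without set B of day 8.

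**Figure D3:**
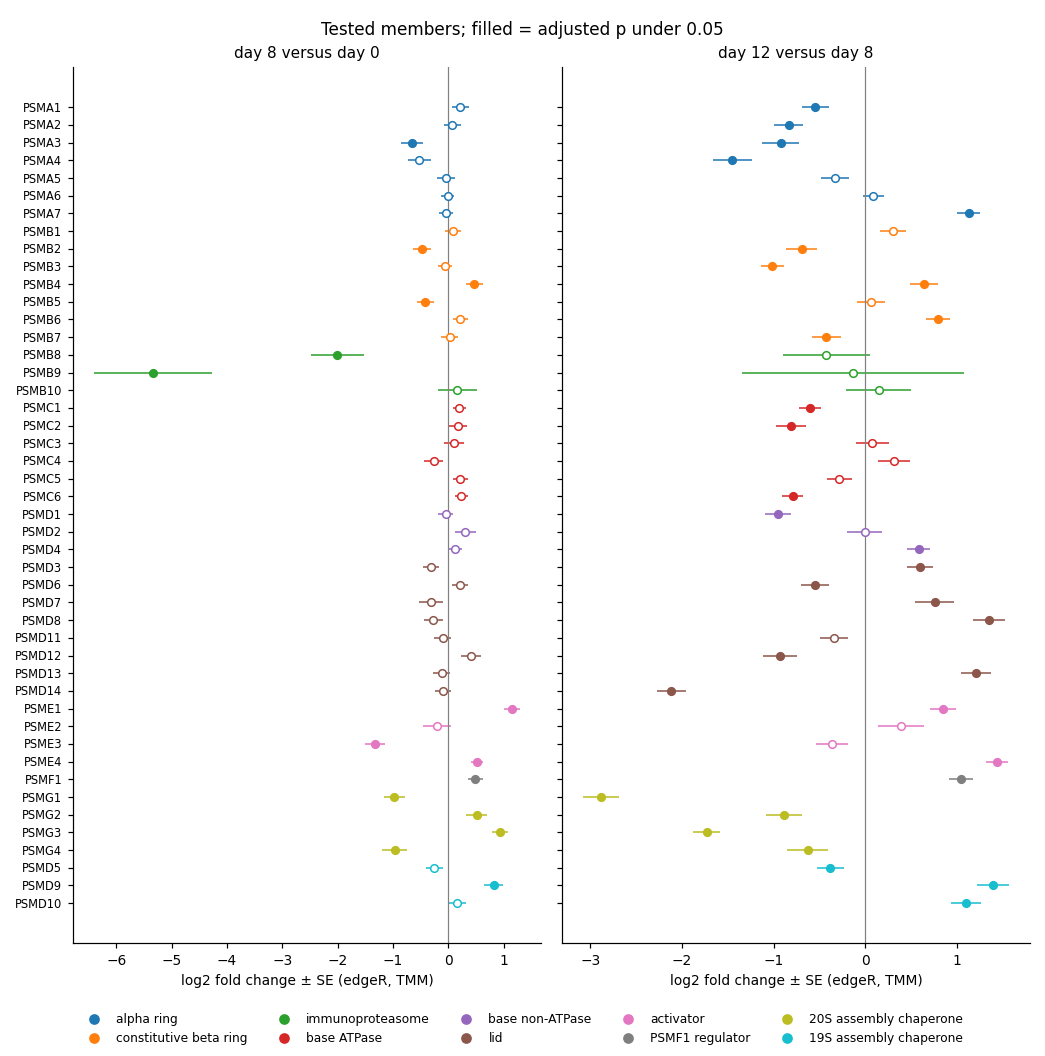
Log2 fold change with its standard error for each of the 46 tested members from day 0 to day 8 (left) and from day 8 to day 12 (right), coloured by role; filled points passed the edgeR test at an adjusted p under 0.05 and open points did not. The axes differ in range; on the right PSMG1 and PSMD14 lie furthest left and PSME4, PSMD9 and PSMD8 furthest right.

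Among the activators, PSME1 and PSME4 rose by day 8 and PSME3 fell. PSME1, which with PSME2 forms the interferon-inducible PA28 ring, stood at 55.56 and 51.68 TMM-normalized CPM on day 0, 85.92 and 79.53 on day 4, 122.8 and 116.3 on day 8 and 178.7 and 251.5 on day 12. It rose by day 4 (0.63 ± 0.14, adjusted p = 0.0231, lost without any 1 library of days 0 and 4), by day 8 (1.16 ± 0.14, adjusted p = 5.88e-05) and again by day 12 (0.85 ± 0.14, adjusted p = 0.000184). In TPM it was 138.3 and 136.0 on day 0, 188.2 and 215.9 on day 8 and 126.4 and 135.6 on day 12, so the last rise was seen on the TMM scale and turned in TPM (-0.62 on log2(TPM + 1)). Its partner PSME2 was not called in any of the 3 steps and ranged from 28.39 to 128.6 TPM.

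PSME3, the nuclear activator PA28 gamma, stood at 278.7 and 254.9 TMM-normalized CPM on day 0, 195.9 and 210.1 on day 4 and 88.22 and 125.0 on day 8. It was lowest of the activators on day 4 without passing the test (-0.39 ± 0.18, adjusted p = 0.25) and fell by day 8 (-1.32 ± 0.18, adjusted p = 0.000108). Over the fits without 1 library the change ran from -1.58 to -1.10, and it was -1.93 on log2(TPM + 1). PSME4, the activator PA200 that acts on core histones, stood at 177.5 and 194.8 on day 0, 262.8 and 272.1 on day 8 and 716.0 and 729.0 on day 12. It rose by day 8 (0.52 ± 0.11, adjusted p = 0.00315, -0.07 on log2(TPM + 1)) and by day 12 (1.43 ± 0.12, adjusted p = 2.13e-07), the largest rise of any member in that step. In TPM it stayed between 54.65 and 77.13 in all 20 libraries and was 55.24 and 69.32 on day 8 and 70.34 and 54.72 on day 12 (0.004 on log2(TPM + 1), not called). Its leading transcript is a predicted model, and with curated transcripts only both calls were lost (0.70 from day 8 to day 12, adjusted p = 0.284). PSMF1, a regulator named for inhibiting the core in vitro, rose by day 8 (0.49 ± 0.13, adjusted p = 0.00998) and by day 12 (1.04 ± 0.13, adjusted p = 1.38e-05), the first call being lost without set B of day 0 or set A of day 8. On log2(TPM + 1) the values of PSMF1 were -0.11 and -0.42.

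The chaperones of core assembly fell together on day 12 and parted before it. By day 8, 2 of the 4 PSMG genes rose and 2 fell, and from day 8 to day 12 all 4 fell. PSMG1, which with PSMG2 builds the alpha ring, stood at 173.9 and 154.0 TMM-normalized CPM on day 0, 71.39 and 95.74 on day 8 and 12.68 and 9.97 on day 12. It fell by day 8 (-0.97 ± 0.18, adjusted p = 0.00121) and by day 12 (-2.88 ± 0.20, adjusted p = 4.55e-08), the largest fall of any member in that step. PSMG3, which acts with PSMG4, stood at 21.64 and 18.7 on day 0, 33.44 and 34.37 on day 4, 37.59 and 39.59 on day 8 and 12.74 and 10.47 on day 12. It rose by day 4 (0.75 ± 0.15, adjusted p = 0.00982, lost without set B of day 0 or either library of day 4) and by day 8 (0.94 ± 0.15, adjusted p = 0.000333), and then fell (-1.73 ± 0.15, adjusted p = 4.51e-07). Day 12 lay below day 0 for PSMG1 and PSMG3 in both sets. PSMG2 rose by day 8 close to the threshold, a call lost in 15 of the 20 fits without 1 library and with -0.07 on log2(TPM + 1) (0.52 ± 0.19, adjusted p = 0.0496) and fell by day 12 (-0.89 ± 0.19, adjusted p = 0.00136). PSMG4 fell by day 8 (-0.97 ± 0.22, adjusted p = 0.00417) and by day 12 (-0.63 ± 0.22, adjusted p = 0.0266), but the first call was lost without either set A library of days 0 and 8 and the second was not made by DESeq2.

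Of the 3 chaperones of the base, 2 rose from day 8 to day 12 and 1 fell. PSMD9 stood at 61.22 and 55.38 TMM-normalized CPM on day 0, 112.2 and 94.16 on day 8 and 230.9 and 309.8 on day 12. It rose by day 8 (0.82 ± 0.17, adjusted p = 0.00226) and by day 12 (1.39 ± 0.17, adjusted p = 1.16e-05, -0.06 on log2(TPM + 1)), and in TPM it stayed between 50.39 and 68.68 in all libraries. PSMD10, also known as gankyrin, was not called by day 8 (0.16 ± 0.17, adjusted p = 0.468) and rose by day 12 (1.10 ± 0.17, adjusted p = 7.53e-05), against -0.35 on log2(TPM + 1). PSMD5 had the lowest value of the group in both steps and fell by day 12 (-0.38 ± 0.15, adjusted p = 0.0446), a call that was lost in 6 of the fits without 1 library.

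**Figure D4:**
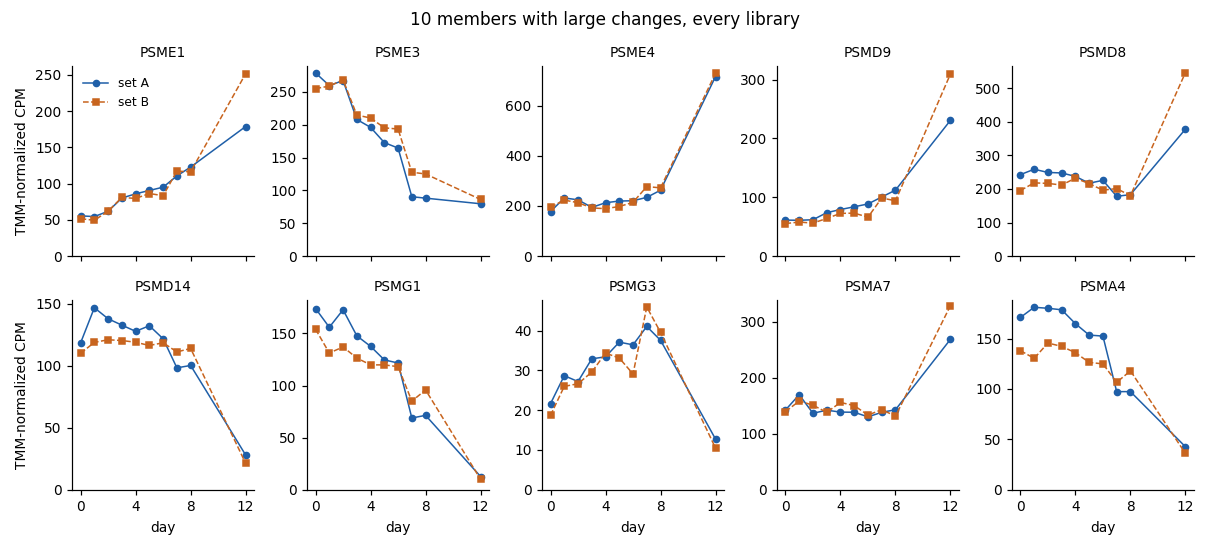
TMM-normalized CPM by day of 10 members with large called changes, PSMB8 and PSMB9 not among them, each panel with its own axis from 0. Circles with solid lines are set A and squares with dashed lines set B; PSME4 reaches 716.0 and 729.0 on day 12 while PSMG1 ends at 12.68 and 9.97 and PSMD14 at 27.97 and 21.32.

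Genes that work with the proteasome but do not carry a PSM symbol were counted from a fixed list of 42. Of 24 partners, 0 were called on day 4 by edgeR (5 higher and 0 lower at an unadjusted p under 0.05, 2 higher by DESeq2), 6 rose and 1 fell by day 8, and 12 rose and 5 fell from day 8 to day 12. By day 8 the largest rise was that of DDI2 (1.83 ± 0.27, adjusted p = 0.000207), the protease that activates NFE2L1, and the one that fell was UBQLN4 (-0.87 ± 0.19, adjusted p = 0.00293). From day 8 to day 12 the largest rises were those of ZFAND5 (3.70 ± 0.33, adjusted p = 5.22e-07), a proteasome-binding activator, and NFE2L1 (1.84 ± 0.18, adjusted p = 1.05e-06), the transcription factor that induces proteasome genes when proteasome activity is low. UCHL5, the deubiquitinase of the 19S particle, fell most (-1.90 ± 0.21, adjusted p = 4.8e-06), followed by SEM1 (-1.70 ± 0.29, adjusted p = 0.00023), a small lid subunit. ADRM1, the ubiquitin receptor that holds UCHL5 in the base, rose in the same step (1.30 ± 0.22, adjusted p = 0.000175), though its mean TPM was 121.6 on day 8 and 108.2 on day 12.

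Of 6 genes for ubiquitin and its activating enzymes, 2 rose and 2 fell by day 8, and 4 rose and 1 fell by day 12. UBB, which encodes a chain of ubiquitin, rose by day 8 (0.89 ± 0.17, adjusted p = 0.00142), when the activating enzymes UBA1 (-0.94 ± 0.27, adjusted p = 0.0143) and UBA6 (-0.69 ± 0.23, adjusted p = 0.0322) fell. From day 8 to day 12, UBB rose again (2.00 ± 0.18, adjusted p = 4.97e-07) and UBA6 fell (-1.17 ± 0.24, adjusted p = 0.000782).

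Among 12 genes of antigen presentation and the interferon response, of which 11 were tested and MX1 was not, 2 rose and 1 fell by day 4, 2 rose and 4 fell by day 8, and 3 rose and 3 fell from day 8 to day 12. The peptide transporter genes, neighbours of PSMB8 and PSMB9 in the genome, fell by day 8, TAP2 by a log2 fold change of -1.96 ± 0.23 (adjusted p = 3.74e-05) and TAP1 by -1.41 ± 0.32 (adjusted p = 0.00415). IFIT1, an interferon-induced gene, fell too (-2.27 ± 0.69, adjusted p = 0.0198). IRF1, a factor that drives PSMB8 and PSMB9 after interferon, moved the opposite way by day 8 (3.30 ± 0.44, adjusted p = 9.51e-05), and so did ERAP1 (1.25 ± 0.14, adjusted p = 3.23e-05), which trims peptides for presentation.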

How the data were processed

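Poly(A)-selected stranded libraries (TruSeq) of HUDEP-2 cells from 10 days, 2 libraries a day, were used. Per the labels and the study's methods, the authors used Trimmomatic 0.38 for trimming, HISAT2 2.1.0 for alignment to hg38 and StringTie 2.1.3b for quantifying RefSeq transcripts. How reads shared by transcripts or by gene copies were divided is not given in the sources used here, so members with processed pseudogenes carry that uncertainty. The authors deposited read counts as whole numbers without normalization, and TPM scaled by them for transcript length and library total. The 4 deposited tables hold 63 columns with a value per library, of which 40 were read and 23 (the FPKM columns and a further set for day 0) were not used. The tables thus hold more day 0 sets than the 2 day 0 libraries. No label says which to use, and the unused set was not compared with the others.

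Transcript values were summed by gene symbol. Counts were tested with edgeR 4.0.16 (filterByExpr, TMM, glmQLFit, glmQLFTest) in 1 fit of all 20 libraries with a coefficient per day, and p-values were adjusted by Benjamini-Hochberg over 16784 genes, and called below 0.05. The SE of a log2 fold change was derived from its size and the F statistic of its test (size over root F). On simulated data the test recovered 26.5% of genes changed 2-fold and 89.5% of genes changed 4-fold from day 0 to day 8, each among 200 changed genes, with 5.36% and 5.29% of calls false (15911 and 15941 genes). The squared coefficient of variation was set to 0.04 for every gene and was not estimated from these data. The recovery for the members may therefore differ. Libraries of the same day differed beyond sampling noise in 69.2% to 82.4% of genes, on counts scaled by library total alone. Each was counted as its own sample, but such differences cannot show that the libraries came from separate cultures. Alternatives were DESeq2 1.42.0, limma 3.58.1 on log2(TPM + 1) and log2(TPM + 0.1), other scaling factors and other filters. Further ones were curated transcripts, the set (A or B) as a block, only the days compared, and single libraries left out.

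Genes were named by a rule: the catalytic beta subunits, the highest and lowest log2 fold change of each role group in a comparison, and the 3 largest called changes each way. Other members are named to account for the counts. The members and lists were chosen with earlier results of these data known. Protein sequences were not used here, and some genes of the lists are counted but not reported by name.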

Additional observations from a re-analysis of the deposited data

How the results depend on the processing

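Over all values and alternatives, 1937 kept their direction and side of the threshold, 107 lost a call, 30 gained one and 67 turned their sign. No paired analysis was possible because replicate numbers are missing from the column names, which give the day alone. With the set (A or B) as a block, 4 members were called higher on day 4, and all 15 calls of day 8 and all 32 of day 12 stayed. Within set A, days 0, 8 and 12 come from different tables. Differences between those tables are not removed by this block and cannot be told apart from those between days. On day 4 the 2 members called higher became 4 with DESeq2, 1 on log2(TPM + 0.1) and 0 with only the days compared, and the 1 called lower became 0 at 10 counts in every library and with curated transcripts. By day 8 the 7 called higher became 1 on log2(TPM + 1) and on log2(TPM + 0.1) and 3 with only the days compared, and the 8 called lower became 32, 31 and 5, and 3 without both libraries high in ribosomal RNA. From day 8 to day 12 the 13 called higher became 0 and 0 in TPM, and the 19 called lower 40 and 40, and 12 with only the days compared. Without 1 library the counts ran from 0 to 3 and 0 to 1 on day 4, 5 to 7 and 3 to 7 by day 8, 11 to 15 and 14 to 21 by day 12, and 29 to 34 over all days. Of the 15 calls of day 8, 7 stayed without the set A library of that day. The cause was not tested; fewer libraries enter the fits that leave some out.

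On log2(TPM + 1), with log2(TPM + 0.1) after it where it differs, the sign turned, among the members of the naming rule, on day 4 for PSMB10 (-0.13, -0.14), PSMC4 (-0.1) and PSMD1 (-0.006), by day 8 for PSMA1 (-0.37), PSMB4 (-0.13), PSMB6 (-0.38), PSMB7 (-0.58), PSMB10 (-0.42, -0.44), PSMC6 (-0.4), PSMD2 (-0.29) and PSMD12 (-0.19), and by day 12 for PSMA7 (-0.33), PSMB5 (-1.43, -1.45), PSMB6 (-0.67, -0.68), PSMB10 (-1.21, -1.29), PSMC4 (-1.13, -1.14), PSMD4 (-0.87, -0.88), PSMD8 (-0.12) and PSMD9 (-0.06, -0.07). It also turned for 3 further called members by day 8, PSME4 (-0.07), PSMF1 (-0.11) and PSMG2 (-0.07). By day 12 it turned for 7, PSMB4 (-0.82), PSMD3 (-0.85), PSMD7 (-0.68), PSMD10 (-0.35), PSMD13 (-0.25), PSME1 (-0.62) and PSMF1 (-0.42). Members that were not called turned as well and are not all listed, PSMB1 (-1.16) and PSMC3 (-1.38) by day 12 among them. Other turns were PSMD5 on day 4 (0.0006 with upper-quartile factors, 0.01 with only the days compared, 0.006 without the libraries high in ribosomal RNA), PSMB7 by day 8 with no filter (-0.0005), PSMC4 by day 8 with curated transcripts (0.08), PSMD1 by day 8 without the libraries high in ribosomal RNA (0.14), and PSMB9 by day 12 (0.03 with DESeq2, 0.01 with upper-quartile factors, 0.03 with RLE factors, 5.13 without the libraries high in ribosomal RNA). Without 1 library the sign turned within these ranges: on day 4 PSMA4 -0.18 to 0.12, PSMB5 -0.15 to 0.02, PSMB10 -0.51 to 0.53, PSMC4 -0.08 to 0.17, PSMD7 -0.18 to 0.1 and PSMD5 -0.11 to 0.09; by day 8 PSMB7 -0.11 to 0.16 and PSMD1 -0.21 to 0.11; by day 12 PSMB5 -0.25 to 0.28, PSMB8 -1.95 to 0.28 and PSMB9 -5.28 to 5.1.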

Other observations

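For a few members the make-up of the mRNA also differed on day 12, as the authors' quantification divides reads among transcripts. The curated PSMD6 transcript NM_014814 made up 57.8% to 87.5% of the gene's TPM on days 0 to 8 and 31.2% and 32.5% on day 12, when the predicted transcript XM_005265619 made up 52.5% and 45.3%, against 3.29% to 18.2% before. Both day 12 libraries lay outside the range of the 18 earlier ones. For PSMD10 the transcript NM_170750 made up 7.51% to 23.8% on days 0 to 8 and 30.4% and 34.5% on day 12. For PSMC4 the leading transcript in the tables was the non-coding XR_002958336, with 37.0% to 82.4% of the gene's TPM, so that its summed level is not that of its coding mRNA. No test was run on these shares.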
